A study of Rattus norvegicus with 2 samples.

Results

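The genes described here encode the subunits of the mitochondrial respiratory chain and ATP synthase, measured in total RNA from rat lung. They were taken by symbol, not by level: a probe set counted when the platform annotation gave it exactly 1 gene symbol that began with Nduf followed by a, b, c, s or v, with Uqcr, with Cox and a digit from 4 to 8, or with Atp5, or that was *Sdha* to *Sdhd* or *Cyc1*. This found 97 of 31042 non-control probe sets, which stand for 87 of the 14217 genes with a single symbol. The study used Affymetrix Rat Genome 230 2.0 arrays, 1 prepared by each of 2 experimenters, and its title names reproducibility as the subject. Array 1 and array 2 below follow the numbers in the sample titles. Both groups are lung from *Rattus norvegicus*, and the labels give no strain, age, sex, treatment or number of animals and do not say whether both experimenters used the same RNA. Differences are array 2 minus array 1 on the log2 scale of the deposited RMA (robust multi-array average) values, and with 1 array per experimenter none of them has a replicate error or a test.

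The respiratory chain moves electrons from NADH and succinate to oxygen and pumps protons across the inner mitochondrial membrane. Complex I oxidises NADH, complex II oxidises succinate, complex III passes electrons from ubiquinol to cytochrome c, complex IV reduces oxygen, and ATP synthase uses the proton gradient to make ATP. Most subunits are encoded in the nucleus, and a few of the most hydrophobic ones are encoded in mitochondrial DNA. Several nuclear subunits of complex IV exist as a widely expressed form and a second form found mainly in heart and skeletal muscle, in testis, or in lung and vascular cells.

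The arrays had medians of 6.32 and 6.28 over the 31042 probe sets. The signal gap between the 3' and 5' control probe sets of beta-actin, which widens as labelled RNA gets shorter, was 2.15 on array 1 and 2.71 on array 2. That of *Gapdh* was 0.30 and 0.26, and that of hexokinase 1.13 and 1.36. Of 8 lung markers listed, 7 were measured, and 6 of them lay in the top 5% of probe sets, among them *Sftpc*, the surfactant protein C gene, at 14.39 and 14.36. The part of RNA length in the differences below was not tested.

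Of the 87 genes found by symbol, 78 encode subunits and 9 do not. The 9 are 6 complex I assembly factors (*Ndufaf1*, *Ndufaf3*, *Ndufaf4*, *Ndufaf5*, *Ndufaf7* and *Ndufaf8*), the ATP synthase inhibitor *Atp5if1*, the pseudogene *Cox6c-ps1* and *Cox7a2l*, which helps join complexes III and IV into supercomplexes. A further 7 probe sets carried a matching symbol together with a second one, so they were not named. They had mean levels from 9.08 to 12.44 and differences from -0.26 to 0.18. *Cox7a2*, *Cox8c*, *Atp5mc1* and *Atp5mc2* were not among the 87 genes the rule found and were not analysed here. *Ndufa4* and its relative *Ndufa4l2* carry complex I names but are counted with complex IV, where the NDUFA4 protein is now placed.

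As a group the 78 subunit genes gave strong and closely matching signals. Their median value was 10.62 on array 1 and 10.58 on array 2, against 7.59 and 7.57 over all 14217 genes. Of the 78, 62 lay in the top 10% of all probe sets by mean level and 48 in the top 5%, and 3 lay below the median probe set. The subunits' differences had a median of -0.064 and an SD across genes of 0.16, against a median of -0.049 and an SD of 0.26 over all genes. Signal strength differs between these sets. Among genes in the top 10% by level the SD was 0.16 for the 62 subunits and 0.22 for all 2370 genes. There, 32 of the 62 subunits (51.6%) differed by less than 0.1, as did 38.02% of the 2370. Levels were still not matched, with a median of 10.78 for the 62 subunits and 10.31 for the 2370 genes. No test was made of the gap in spread, because genes on 1 pair of arrays are not replicates.

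Large differences between the arrays were rare, both among these genes and over all genes. At least 1.5-fold (0.58 on the log2 scale), 1 of the 87 was higher on array 2 and 1 was lower, which is 1.15% each way, against 1.93% higher and 1.31% lower over all 14217 genes. Both were assembly factors, and 0 of the 78 subunits reached 1.5-fold. At a difference of at least 0.32, 4 of 87 were higher and 2 lower, against 7.96% higher and 10.8% lower over all genes. The 4 were *Ndufaf4*, *Sdhd*, *Sdhc* and *Ndufaf8*, and the 2 were *Ndufaf1* and *Ndufa4l2*. At 2-fold there were 0, against 0.274% of all genes in either direction. The 87 genes were lower on array 2 in 59 cases (67.8%), against 58.7% of all genes. That split moved with the scaling. After the median of each array was set equal it was 48 of 87 (55.2%), against 52.5% of all genes. After a loess trend was removed it was 46 of 87 (52.9%) against 49.7%, and after quantile normalization 52 of 87 (59.8%) against 51.7%.

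**Figure D1:**
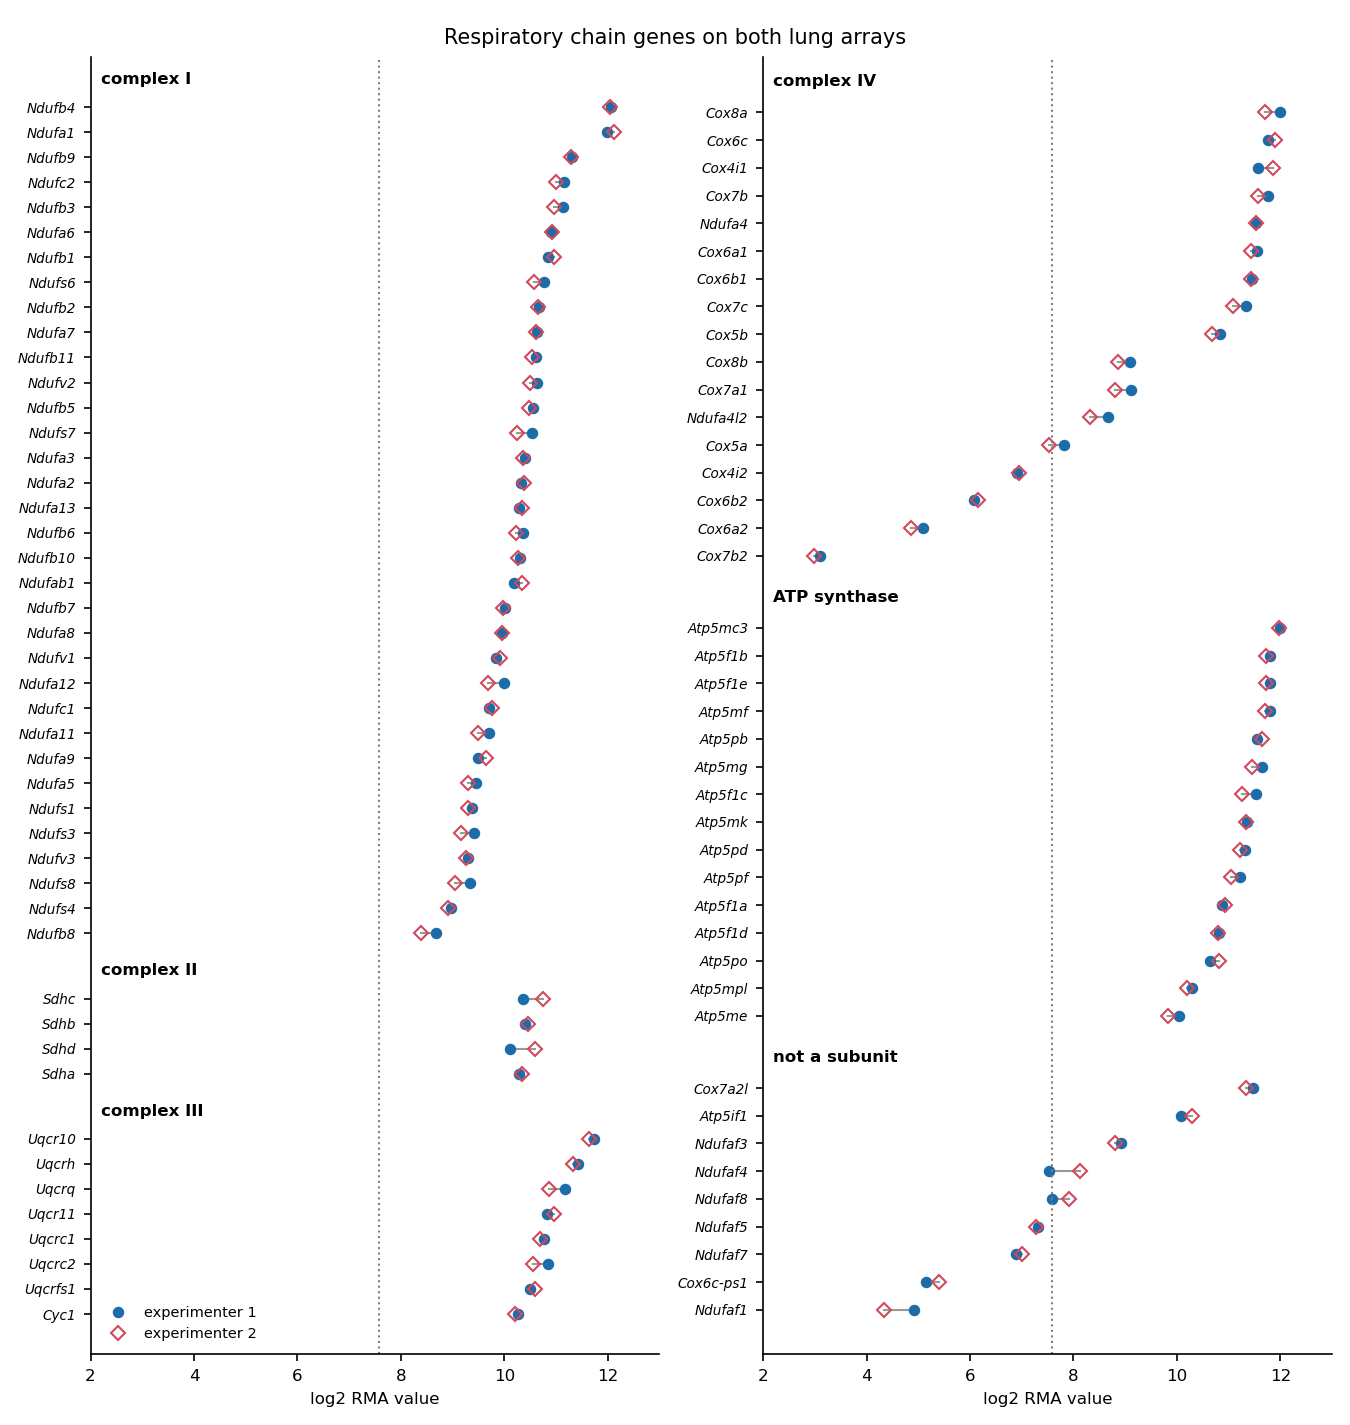
Log2 RMA value (horizontal axis) of each of the 87 genes by its brightest probe set, with array 1 (experimenter 1) as filled circles and array 2 (experimenter 2) as open diamonds. The dotted line is the median level of all genes, 7.58. Of the 78 subunits 62 lie in the top 10% of probe sets, and the spread to low values is within complex IV and among the genes that are not subunits.

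Promoter sequence was not used to choose these genes, and it was searched for motifs. NRF1, the ETS factor GABP and YY1 are transcription factors long linked to nuclear genes of the respiratory chain. RefSeq windows on assembly GRCr8, from 250 bases before to 50 after the annotated start of transcription, were matched for 78 of the 87 genes, and 3 short motifs were searched on both strands. The letters were GCGCANGCG for the NRF1 core, CCGGAAGT for the ETS core and AANATGGCG for the YY1 core. The NRF1 core was in 19 of 78 windows (24.4%), against 7.62% of the 21842 windows of protein-coding genes and 5.80% of all 33469. The YY1 core was also in 19 (24.4%), against 3.67% and 3.01%. The ETS core was in 8 (10.3%), against 4.78% and 3.81%. At least 1 of the 3 was in 41 windows (52.6%), against 14.4% and 11.3%. Each of the 78 genes had 1 window, whereas some other genes had more. Among the 17541 protein-coding genes with 1 window, the shares were 8.23% for NRF1, 4.17% for YY1 and 5.07% for ETS. At least 1 of the 3 motifs was in 15.5% of those. The median window held 20 CpG dinucleotides, against 11 for protein-coding genes, and the median GC content was 56% against 55%. These are matches of letters and show no binding.

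The windows below were chosen to show each motif at genes with strong signals, and a pair of isoforms. *Ndufb4* is the brightest subunit with an NRF1 match and *Atp5f1b* the brightest with a YY1 match. *Ndufa6* and *Uqcrc1* are the brightest that hold more than 1 motif. *Cox8a* and *Cox8b* encode the widely expressed and the muscle form of complex IV subunit 8. Each is 5' to 3' on the strand of the gene, on GRCr8, with matched letters in capitals.
*Ndufb4*, chr11:76568928-76569227, plus strand: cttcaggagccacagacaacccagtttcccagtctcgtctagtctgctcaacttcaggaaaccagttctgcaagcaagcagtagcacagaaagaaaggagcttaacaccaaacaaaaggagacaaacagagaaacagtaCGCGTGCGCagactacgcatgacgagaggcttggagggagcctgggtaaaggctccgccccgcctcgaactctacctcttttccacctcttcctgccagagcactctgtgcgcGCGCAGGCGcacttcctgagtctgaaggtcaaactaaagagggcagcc
*Atp5f1b*, chr7:1099808-1100107, plus strand: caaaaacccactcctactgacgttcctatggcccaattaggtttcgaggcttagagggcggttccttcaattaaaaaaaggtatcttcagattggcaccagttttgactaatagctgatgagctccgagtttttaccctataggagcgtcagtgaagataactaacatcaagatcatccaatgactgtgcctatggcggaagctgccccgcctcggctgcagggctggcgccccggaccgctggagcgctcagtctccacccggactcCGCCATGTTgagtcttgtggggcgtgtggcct
*Ndufa6*, chr7:115750268-115750567, minus strand: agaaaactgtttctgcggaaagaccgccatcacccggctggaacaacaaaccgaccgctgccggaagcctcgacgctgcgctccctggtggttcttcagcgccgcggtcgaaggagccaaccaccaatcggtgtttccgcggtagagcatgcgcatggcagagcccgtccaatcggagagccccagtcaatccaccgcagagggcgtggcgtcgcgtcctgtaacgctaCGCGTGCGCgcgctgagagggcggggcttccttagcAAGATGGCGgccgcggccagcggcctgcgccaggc
*Uqcrc1*, chr8:118467973-118468272, plus strand: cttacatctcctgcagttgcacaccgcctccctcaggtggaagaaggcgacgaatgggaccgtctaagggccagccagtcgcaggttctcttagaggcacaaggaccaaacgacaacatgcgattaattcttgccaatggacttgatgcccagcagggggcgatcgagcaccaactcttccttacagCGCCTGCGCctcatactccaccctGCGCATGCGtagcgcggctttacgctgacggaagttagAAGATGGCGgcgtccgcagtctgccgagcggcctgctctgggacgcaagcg
*Cox8a*, chr1:213833574-213833873, minus strand: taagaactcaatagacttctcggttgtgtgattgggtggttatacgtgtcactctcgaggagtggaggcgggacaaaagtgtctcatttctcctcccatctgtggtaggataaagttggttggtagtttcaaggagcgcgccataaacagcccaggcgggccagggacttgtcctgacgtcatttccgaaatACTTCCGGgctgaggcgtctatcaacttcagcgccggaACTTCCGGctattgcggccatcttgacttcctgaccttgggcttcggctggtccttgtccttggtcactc
*Cox8b*, chr1:205408224-205408523, minus strand: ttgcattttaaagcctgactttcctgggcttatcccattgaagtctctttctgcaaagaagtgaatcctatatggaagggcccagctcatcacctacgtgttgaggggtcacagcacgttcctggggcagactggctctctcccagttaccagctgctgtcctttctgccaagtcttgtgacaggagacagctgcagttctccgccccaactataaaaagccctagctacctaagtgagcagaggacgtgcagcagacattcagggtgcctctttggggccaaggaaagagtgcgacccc
The capitals are NRF1 matches in *Ndufb4*, a YY1 match in *Atp5f1b*, 1 of each in *Ndufa6*, 2 NRF1 and 1 YY1 in *Uqcrc1* and 2 ETS matches in *Cox8a*. The window of *Cox8b* held 0 matches of the 3 motifs, and it held 5 CpG against 16 in that of *Cox8a*.

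The motifs lay at different places. YY1 matches began at a median of 13 bases after the start, with 15 of 19 after it and 16 of the 19 windows matched on the strand of the gene. The YY1 letters contain ATG, and whether a match covers a start codon was not examined. NRF1 matches, 23 in all, began at a median of 39 bases before the start, and the 10 ETS matches at a median of 40 before it. Matches of different motifs overlapped in 0 windows, and 5 windows held 2 of the motifs. By complex, at least 1 motif was in 18 of 32 windows of complex I, 10 of 14 of ATP synthase, 4 of 6 of complex III, 2 of 4 of complex II and 3 of 14 of complex IV. Of the 6 tissue isoforms with a window, 1 held a match, a YY1 core in *Cox7b2*. Windows of *Cox4i2* and *Cox6a1* were not matched.

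**Figure D2:**
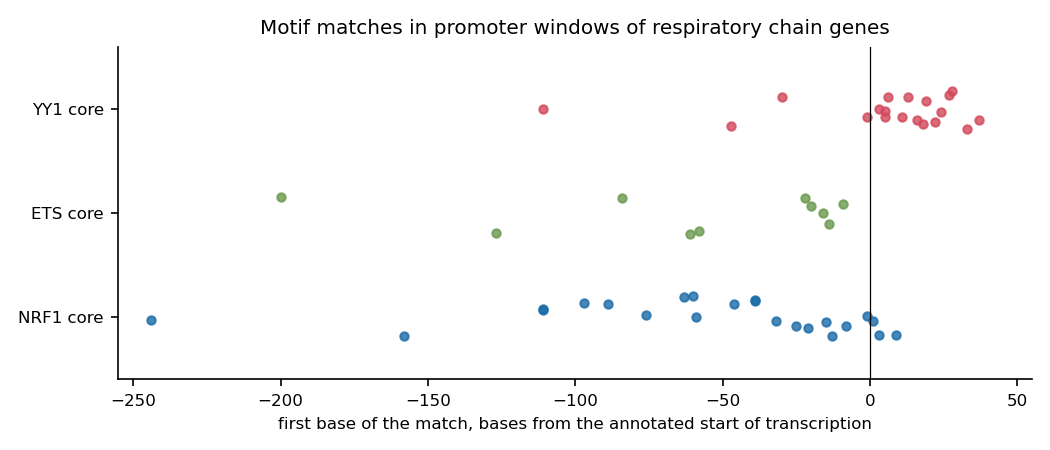
Position of each motif match in the 78 promoter windows, as the first base of the match in bases from the annotated start of transcription (horizontal axis, 0 marked), with 1 row per motif and points jittered vertically. YY1 matches gather just after the start, with 15 of 19 there, and NRF1 and ETS matches lie mostly before it.

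Differences between the arrays were also set beside the motifs. The median difference was -0.067 for the 41 with a match and -0.078 for the 37 without. It was -0.061 for the 19 with the NRF1 core, -0.061 for the 19 with the YY1 core and -0.081 for the 8 with the ETS core. The factors' own genes read as follows. *Nrf1* measured 6.77 on array 1 and 6.81 on array 2, and *Yy1* 10.22 and 10.30. *Gabpa*, the DNA-binding subunit of GABP, measured 8.91 and 9.51, a difference of 0.60, while its partner *Gabpb1* measured 9.20 and 8.98.

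Complex I was represented by 34 subunit genes, all above the median probe set, with mean levels from 8.53 to 12.05. Their median value was 10.31 on array 1 and 10.30 on array 2, and their median difference was -0.045, next to -0.049 over all genes. Of the 34, 25 were lower on array 2, or 18 with medians set equal, 17 after loess and 21 after quantile normalization. The highest signals were those of *Ndufb4* and *Ndufa1*, accessory subunits of the membrane arm. *Ndufb4* measured 12.06 and 12.03 and *Ndufa1*, which is X-linked, 11.99 and 12.11. The lowest was *Ndufb8*, another membrane arm subunit, at 8.68 and 8.39. No complex I subunit lay outside -0.32 to 0.16 in difference.

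The core of complex I carries the redox centres, and 6 of its nuclear genes were measured. *Ndufv1*, which binds NADH and flavin, measured 9.85 and 9.92, and *Ndufv2*, its iron-sulphur neighbour, 10.64 and 10.51. *Ndufs1*, the largest subunit, with iron-sulphur clusters, measured 9.37 and 9.30. These 3 differed by 0.077, -0.13 and -0.067. *Ndufs3*, a peripheral arm subunit, measured 9.42 and 9.16, *Ndufs7*, which holds the last cluster before ubiquinone, 10.53 and 10.24, and *Ndufs8*, another iron-sulphur subunit, 9.34 and 9.05. These last 3 were each lower on array 2, with differences of -0.26, -0.29 and -0.29. The 6 core genes had a median difference of -0.20 and the 28 accessory genes one of -0.030. Under the deposited scaling, 5 of 6 and 20 of 28 were lower on array 2, against 58.7% of all genes. The split into core and accessory genes was not recounted under the other scalings. *Ndufa12*, an accessory subunit, had the largest difference in the complex at -0.319 (10.0003 and 9.68), and *Ndufab1*, the mitochondrial acyl carrier protein, the largest upward one at 0.16 (10.18 and 10.33).

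The 6 complex I assembly factors, which help to put the subunits together, had differences that spread from -0.59 to 0.59, with *Ndufaf1* and *Ndufaf4* at the ends. Their differences had an SD of 0.41 across genes, against 0.13 for the 34 subunits and 0.26 for all genes. The 30 assembly factors measured outside the symbol rule, at a median level of 8.25, had an SD of 0.24. For the 6, the median level was 7.52, against 10.30 for the 34 subunits. *Ndufaf4* measured 7.53 on array 1 and 8.12 on array 2, which is 1.51-fold. *Ndufaf1* measured 4.92 and 4.33, a difference of -0.59, at a level below the median probe set (6.31). *Ndufaf8* measured 7.58 and 7.91, and *Ndufaf3*, the brightest, 8.92 and 8.80. *Ndufaf5* and *Ndufaf7* differed by -0.052 and 0.12. Each of *Ndufaf1*, *Ndufaf4* and *Ndufaf8* had 1 probe set under the symbol rule, so these differences have no second reading here. With medians set equal, *Ndufaf1* no longer reached 1.5-fold.

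Complex II, succinate dehydrogenase, is the smallest of the chain and has no subunit in mitochondrial DNA. All 4 of its genes were measured, and each was higher on array 2, under the deposited scaling and the 3 others tried. *Sdha*, the flavoprotein that oxidises succinate, measured 10.29 and 10.34, and *Sdhb*, the iron-sulphur subunit, 10.41 and 10.45. The membrane anchors differed more: *Sdhc* measured 10.36 and 10.76 and *Sdhd* 10.11 and 10.59. The median of the 4 was 0.22, the only positive one among the 5 complexes. The value for *Sdhd* came from its brightest probe set. A second probe set of *Sdhd*, with a mean of 9.62 against 10.35 for the first, measured 9.64 and 9.60, a difference of -0.048. With this probe set in place of the brightest, the median of complex II was 0.047. *Sdhc* had 1 probe set.

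**Figure D3:**
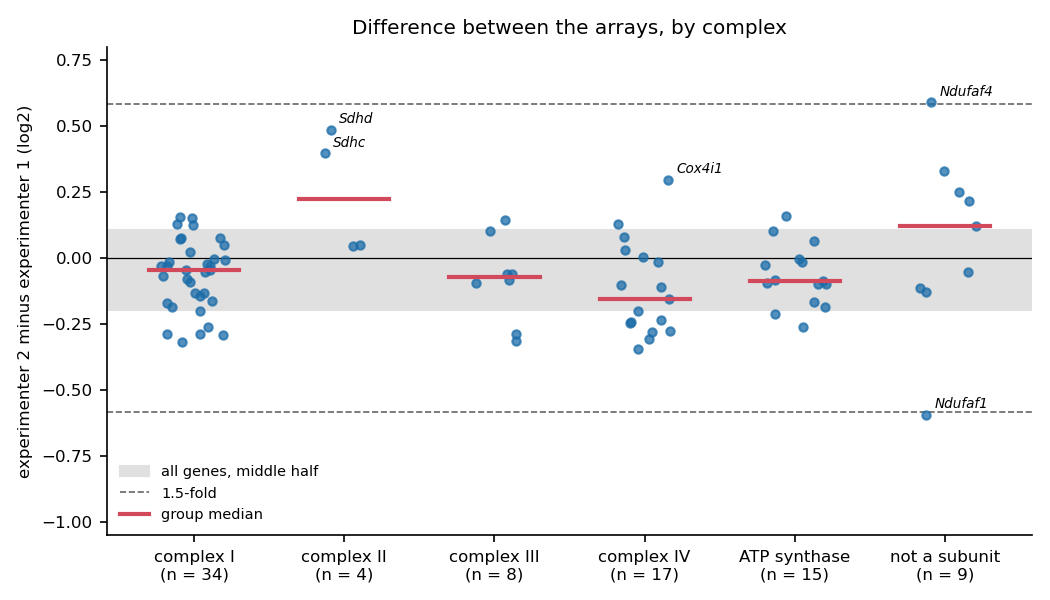
Difference between the arrays (array 2 minus array 1, log2, vertical axis) for each gene by its brightest probe set, in columns by complex with points jittered sideways. Red bars are group medians, the grey band spans the lower to upper quartile of all 14217 genes (-0.20 to 0.11) and dashed lines mark 1.5-fold. Complex II lies above 0, complex IV has the lowest median at -0.16, and only *Ndufaf4* and *Ndufaf1* pass the dashed lines.

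Complex III was measured by 8 genes, each in the top 10% of probe sets. Their median difference was -0.074 and 6 of 8 were lower on array 2 under each scaling tried. *Uqcrfs1*, the Rieske iron-sulphur protein, measured 10.50 and 10.60, and *Cyc1*, cytochrome c1, the dimmest of the 8, 10.27 and 10.21. *Uqcr10*, a small subunit, was the brightest at 11.73 and 11.65. *Uqcrc1* and *Uqcrc2* encode the large core proteins. *Uqcrc1* measured 10.76 and 10.70, and *Uqcrc2* 10.85 and 10.56. A second probe set of *Uqcrc2*, with a mean of 7.09, was also lower on array 2, with a difference of -0.17 against -0.29. The largest difference was that of *Uqcrq*, a ubiquinone-binding subunit, at -0.31 (11.17 and 10.86).

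ATP synthase had a median level of 11.34 over 15 genes, with each of the 15 in the top 10% of probe sets. Its median difference was -0.086, and 12 of 15 were lower on array 2, or 9 with medians set equal or after loess and 10 after quantile normalization. Of the catalytic head, *Atp5f1a* (subunit alpha) measured 10.88 and 10.94, *Atp5f1b* (the catalytic subunit beta) 11.81 and 11.72, and *Atp5f1c* (gamma, the rotating shaft) 11.52 and 11.26. The difference of *Atp5f1c*, -0.26, was the largest in the complex, and *Atp5po*, the stalk subunit OSCP, had the largest upward one at 0.16 (10.65 and 10.81). The brightest was *Atp5mc3*, a gene for the proton-carrying subunit c, at 11.99 and 11.98. *Atp5me*, a small membrane subunit, was the dimmest at 10.03 and 9.82. *Atp5if1*, the inhibitor that blocks ATP hydrolysis when the proton gradient fails, measured 10.08 and 10.29.

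Complex IV, cytochrome c oxidase, had the widest range of signal, with mean levels from 3.04 to 11.85 over 17 genes, and the lowest median difference, -0.16. Of the 17, 12 were lower on array 2, or 11 under each of the other scalings. The 10 genes that are not tissue isoforms had a median level of 11.51 and included 9 in the top 5% of probe sets. *Cox8a* was the brightest at 11.99 and 11.71, and *Cox6c*, a small structural subunit, read 11.77 and 11.90. *Cox5a*, a matrix-side subunit, was the exception at 7.82 and 7.54. *Cox5b*, another matrix-side subunit, measured 10.83 and 10.68, and *Cox7c*, a small membrane subunit, 11.34 and 11.09. *Cox4i1* went the other way, at 11.56 on array 1 and 11.86 on array 2, the largest upward difference in the complex.

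Isoform pairs were then set side by side. A gap between genes is a gap in probe set signal, since probe sets bind with unequal strength, and it is not a ratio of transcripts; the change of a gap between the arrays cancels a fixed binding strength but has no replicate error. In each of the 6 pairs the widely expressed gene gave the higher signal, with a mean gap of 2.87 on the log2 scale for the *Cox8a* pair, the smallest. RMA gives no detection call, so gaps to the dimmest genes, *Cox7b2* and *Cox6a2*, may be limited by background signal and are not ranked. *Cox4i1*, the common form of subunit 4, exceeded *Cox4i2*, the form known from lung and responsive to oxygen, by 4.65 on array 1 and 4.92 on array 2. *Cox4i2* itself measured 6.91 and 6.94, above the median probe set (6.31). *Ndufa4* read 11.53 on both arrays, while *Ndufa4l2*, a relative known to be induced by hypoxia and found in pericytes, measured 8.66 and 8.32. Their gap grew from 2.87 to 3.21, the largest change of the 6, and *Ndufa4l2* had the largest downward difference of all subunits at -0.34.

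The muscle isoforms did not share a level. *Cox8b* measured 9.10 and 8.86 and *Cox7a1* 9.11 and 8.81, by mean level both above 84% of probe sets, whereas *Cox6a2* measured 5.10 and 4.86, below the median. *Cox6a1*, the common partner of *Cox6a2*, read 11.54 and 11.44. The gap was 6.44 and 6.58 for this pair and 2.89 and 2.86 for *Cox8a* over *Cox8b*. For *Cox7a1* the common form *Cox7a2* was not analysed here. The related *Cox7a2l* measured 11.46 and 11.34, which is above *Cox7a1* by 2.35 and 2.53. Each of the 3 muscle forms was lower on array 2, with differences from -0.31 to -0.24, and that of the common form *Cox8a* was -0.28. Forms known mainly from testis were lower still or near the median probe set. *Cox7b2* measured 3.10 and 2.99, against 11.76 and 11.56 for *Cox7b*, and *Cox6b2* 6.07 and 6.15, against 11.45 and 11.44 for *Cox6b1*.

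**Figure D4:**
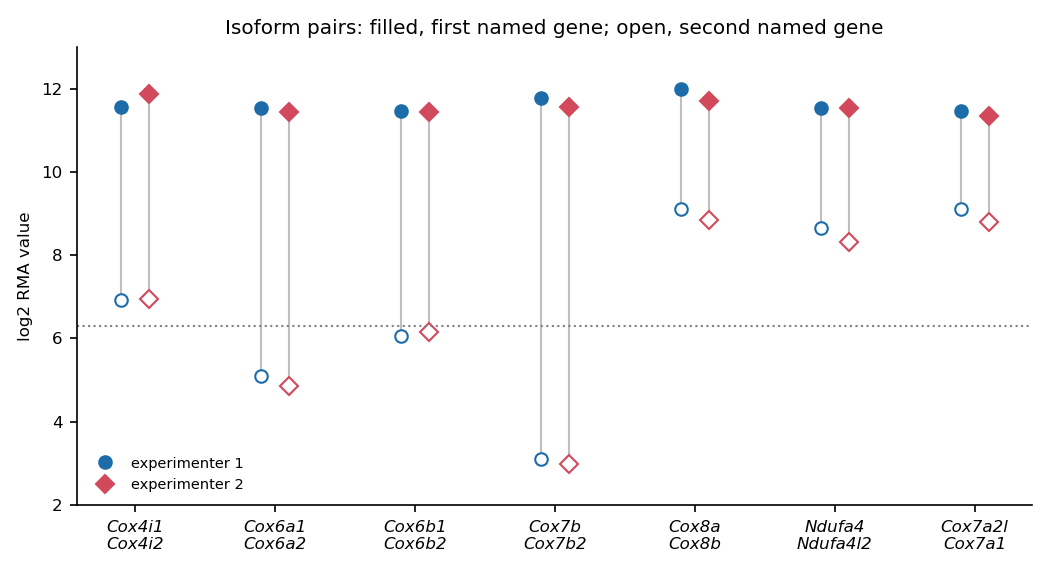
Log2 RMA value (vertical axis) of isoform pairs on array 1 (circles, experimenter 1) and array 2 (diamonds, experimenter 2), with the first named gene filled and the second open. The dotted line marks the median of the probe sets, averaged over the arrays. The first named gene lies at 11.34 or above on both arrays, while the second ranges from 2.99 for *Cox7b2* to 9.11 for *Cox7a1*.

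Markers of cells that use these isoforms were read from lists of genes. Over all 14217 genes, 58.7% were lower on array 2 under the deposited scaling, and 49.7% to 52.5% under the 3 others. The marker lists were not recounted under those scalings. Of 10 cardiac muscle markers, 9 were measured, with a median level of 4.09, and 8 of the 9 lay below the median probe set. Their summed linear signal was 343 on array 1 and 287 on array 2, and 7 of 9 were lower on array 2. Without *Mybpc3*, the brightest, the other 8 summed to 186 and 151. *Myh6*, a cardiac myosin heavy chain, measured 3.66 and 3.36, and *Tnni3*, cardiac troponin I, 5.86 and 5.20, the largest difference of the list. *Tnnt2*, cardiac troponin T (3.70 and 3.76), and *Csrp3*, a muscle LIM protein (4.08 and 4.11), were the 2 that were higher. Of 10 skeletal muscle markers, 9 were measured and 8 lay below the median probe set, with *Ckm*, muscle creatine kinase, at 4.66 and 4.63; the exception was *Myh1*, a fast myosin heavy chain, at 10.13 and 10.01. Their summed signal was 1305 and 1221, most of it from *Myh1*, whose probe set has the suffix for possible cross-hybridisation (_x_at). The other 8 summed to 184 and 193. Of 8 brown fat markers, 8 were lower on array 2 and 6 below the median probe set, with a summed signal of 520 and 464. Without *Fabp4*, the brightest, the other 7 summed to 301 and 256. *Ucp1*, the uncoupling protein, measured 3.97 and 3.70. All 6 measured testis markers lay below the median probe set, with a summed signal of 97 and 100. Pericyte and vascular smooth muscle markers were well represented, with 8 of 10 above the median probe set, a summed signal of 7807 and 6796, and 8 of 10 lower on array 2. Without *Tagln*, the brightest, the other 9 summed to 4460 and 3676. *Higd1b*, a pericyte gene, measured 9.91 and 9.56 and *Myh11*, smooth muscle myosin, 10.82 and 10.41, which is the largest difference of the list at -0.41 against a median of -0.13. The pericyte genes *Rgs5* (7.48 and 7.49) and *Kcnj8* (6.29 and 6.31) were the 2 that were not lower. The part of these cells in the differences of the isoforms was not tested, and in whole lung fewer cells of a type and less RNA per cell cannot be told apart.

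Few genes offered a second reading. Of the 87, 78 had 1 probe set and 9 had more, with 10 extra probe sets, of which 5 lay below the median probe set. The brightest and the second probe set pointed the same way for 2 of the 9, *Ndufaf7* and *Uqcrc2*. Among the others, the second probe set lay above the median yet pointed the other way in *Sdhd*, *Ndufv3* (0.26 against -0.044 for the brightest) and *Ndufa7* (0.11 against -0.016). *Ndufv3* encodes a small subunit at the NADH site and *Ndufa7* an accessory subunit. Of the 97 probe sets, 92 had the plain identifier suffix, 4 the suffix for probes shared by transcripts of 1 gene (_a_at) and 1 the suffix for possible cross-hybridisation (_x_at).

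**Figure D5:**
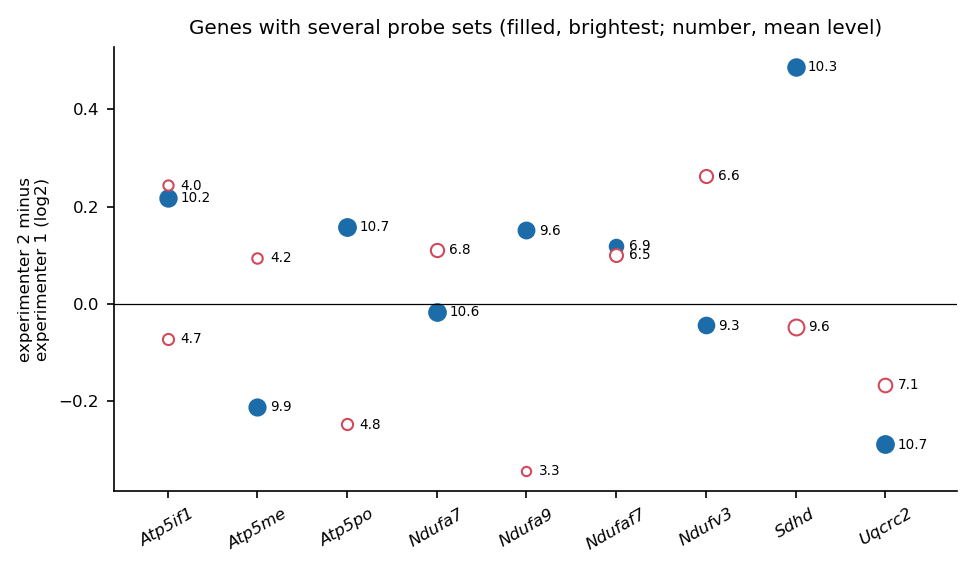
Difference between the arrays (array 2 minus array 1, log2, vertical axis) for each probe set of the 9 genes that have more than 1, with the brightest filled and the others open; the number beside each point and its size give the mean level. The brightest probe set of *Sdhd*, at 0.49, stands apart from the second at -0.048.

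Genes of the wider oxidative pathway were taken from lists by function. Of 13 subunits encoded in mitochondrial DNA, 2 had a single-symbol probe set. *Mt-co1* and *Mt-co2*, core subunits of complex IV annotated as COX1 and COX2, measured 13.48 and 13.37, and 13.90 and 13.89, in the top 1% of probe sets. Of 8 electron carriers and dehydrogenases that feed ubiquinone, 7 were measured and 6 were lower on array 2, against 58.7% of all genes. The median difference of the 7 was -0.081. *Etfa*, of the electron transfer flavoprotein, read 10.37 and 10.48. Of 13 citric acid cycle genes, 11 were measured with a median of -0.068, and *Cs*, citrate synthase, read 10.14 and 10.04. Of 9 genes of ATP export and phosphate import, *Vdac1* and *Vdac2*, outer membrane channels, differed in opposite directions, at 10.68 and 10.20 against 11.08 and 11.41; the list's median was -0.13. The adenine nucleotide carriers *Slc25a4* and *Slc25a5* measured 11.09 and 10.98, and 11.82 and 11.67. None of these 29 genes, which include *Atp5if1* from the 87, reached 1.5-fold, against 1.93% higher and 1.31% lower over all genes.

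Assembly factors and regulators outside the symbol rule gave 1 gene of 30 and 1 of 12 past 1.5-fold. Over all 14217 genes the shares were 1.93% higher and 1.31% lower. Of 32 assembly factors listed, 30 were measured, with a median of -0.033. *Foxred1*, a complex I assembly factor, was the gene past the threshold, at 6.74 and 6.07. *Nubpl*, which delivers iron-sulphur clusters to complex I, measured 7.06 and 7.59. *Surf1*, a complex IV assembly factor, measured 9.83 and 9.64, and *Cox17*, a copper chaperone, 10.29 and 10.24. Among 12 regulators the median was 0.017, with 6 higher and 6 lower, and *Gabpa*, with its difference of 0.60, was the gene past the threshold. *Tfam*, which packages and transcribes mitochondrial DNA, measured 8.68 and 8.79, and *Ppargc1a*, a coactivator of mitochondrial biogenesis, 6.37 and 6.60.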

How the data were processed

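Per the submitters' processing notes, the authors made the deposited values, taken here as log2, with RMA, which corrects background, quantile normalizes the arrays and summarises each probe set. Neither its version nor which arrays entered it is given. No log base is stated, and it was inferred from the range. RMA gives no detection calls.

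Of 31099 rows, 57 were controls. Symbols came from the platform annotation and were updated by Entrez identifier to rat assembly GRCr8 for 20758 of 20826 single-symbol probe sets. A gene was its probe set with the highest mean. The 1.5-fold rule stands in for a test. Members and lists were chosen with earlier results of these data known. Genes were named by a fixed rule: isoform pairs, the catalytic or redox core, each complex's brightest, dimmest and most different genes, and all past 1.5-fold; others were named after their values were seen. No level filter was used. Alternatives were 3 other scalings, 2 other probe set choices, a level filter, subunits only, the mean of the list and other folds. Python 3.11.15, numpy 2.4.6, pandas 2.3.3, statsmodels 0.14.6 and matplotlib 3.10.9 were used, and the code was tested on simulated data.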

Additional observations from a re-analysis of the deposited data

How the results depend on the processing

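No paired analysis was possible because there is 1 array on each side, nor could an array be dropped. With no replicate spread, a log2 value was taken as kept when it moved by less than 0.05 with the same sign. Of 116 recomputed values, 60 equalled the reported value, many because the setting could not change them, such as a gap under median centring. Of the other 56, 44 were kept, 12 moved and 0 changed sign. The tolerance exceeds some of the values: the complex I median went from -0.045 to -0.0026 under loess and counts as kept. The median difference of the 87 genes stayed between -0.067 and -0.016 over all alternatives, and that of all genes between -0.049 and 0.0015 over the scalings. The count of genes at least 1.5-fold lower was 0 in place of 1 after median centring, loess, quantile normalization and the level filter, because *Ndufaf1* is near the threshold and dim. Both counts were 0 for subunits only and at 2-fold, and 4 higher and 2 lower with the threshold at 0.32 on the log2 scale. The median of complex II moved from 0.22 to 0.13 with the mean over probe sets and to 0.047 with the second probe set, through *Sdhd* alone. The isoform genes have 1 probe set each, so probe set choices could not change them. Scaling turned the sign of up to 13 of the 87 genes, those with reported differences of at most 0.053. Pairs with *Cox7a2* or *Cox8c* and the other subunit c genes were not run. Without detection calls, the dim isoforms have no stated background limit.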

Other observations

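Position and size of the genes were read from RefSeq. The 87 genes lay on 20 chromosomes, with 16 on chromosome 1 and 11 on chromosome 7. The share of all genes on these chromosomes was not computed, so the counts show no concentration. Of the 87, 3 were X-linked: *Cox7b* (11.76 and 11.56), *Ndufa1* (11.99 and 12.11) and *Ndufb11* (10.62 and 10.54). The 87 genes spanned a median of 7088 bases, against 15494 for all protein-coding genes. The longest was *Cox7b2* at 112208 bases, the dimmest of the 87 on the arrays.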
